A study of Mus musculus with 18 samples.

Results

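Hdc encodes histidine decarboxylase, the enzyme that turns the amino acid histidine into histamine. It is represented on the kidney arrays by 2 probes, numbered 338 and 6885, of 16128 probes in all, and it is 1 of 7117 genes that the annotation names with a single symbol. They are all the probes that the platform annotation gives to the single symbol Hdc, and each is described on its own. The gene was chosen by its log2 ratios over these same arrays, above all by the contrast of constant hypoxia with normoxia at 2 weeks, so its values are given as a description and carry no test.

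Histidine decarboxylase works with pyridoxal phosphate, the active form of vitamin B6, and it is the enzyme that makes histamine in mammals. Mast cells and basophils store histamine, while gastric and neuronal cells also make it. In the mouse kidney the Hdc transcript is known as a hormone-dependent one, kept low by androgens and therefore higher in adult females than in adult males. Released histamine acts on receptors of the Hrh family and is broken down by histamine N-methyltransferase or by diamine oxidase, with monoamine oxidase and aldehyde dehydrogenase acting further down the route.

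The animals were pups of CD1 mice, an outbred stock, kept from postnatal day 2 for 1, 2 or 4 weeks in 1 of 3 atmospheres. In constant hypoxia oxygen was held at 11%, in intermittent hypoxia it was switched between 21% and 11% every 4 min, and normoxia was room air. Each of the 9 combinations had 2 arrays, named A and B here, for 18 arrays in all. Every array carried kidney cDNA of an animal labelled male in Cy5 and of an animal labelled female in Cy3, both from the same combination, and no dye was swapped. The value used is the log2 ratio of the channels after subtraction of the median of its array, so a value of 1 in size means that the channels differed by a factor of 2 beyond the typical probe. A change in Hdc that was equal in the paired animals leaves this ratio where it was. The sources used here do not state which channel stands on top of the ratio, so positive and negative are signs of the deposited value and say nothing of male or female. The labels name no genetic change or drug in any group. The study compared oxygen regimes and ages of whole kidneys, and in such bulk RNA a change in the number of Hdc-expressing cells and a change in RNA per cell cannot be told apart.

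The 300 bases around the RefSeq start of Hdc are shown because Hdc ratios differed with the oxygen regime and the gene is known to answer to hormones, and both kinds of receptor or factor have short recognition letters that can be looked up. They run from 250 bases before the start to 50 after it, at chr2:126618629-126618928 of build GRCm38.p6, on the minus strand. The sequence reads 5′ to 3′, and the capitals mark TGTTCT, the half-site letters of androgen and glucocorticoid receptors, and GGGCGG, the letters of a GC box.
Hdc promoter: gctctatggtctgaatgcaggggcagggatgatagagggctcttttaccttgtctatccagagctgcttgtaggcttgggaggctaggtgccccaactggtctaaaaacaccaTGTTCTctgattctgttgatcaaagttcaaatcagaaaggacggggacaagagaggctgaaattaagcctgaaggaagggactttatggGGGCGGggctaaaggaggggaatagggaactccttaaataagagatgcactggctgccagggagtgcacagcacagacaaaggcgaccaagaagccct
TGTTCT occurred 1 time, at base 114 counted from the 5′ end, and 19.0% of 32851 RefSeq promoters of this length held it on either strand. GGGCGG occurred 1 time, at base 203, and 35.7% of the promoters held it. The hypoxia response element cores ACGTG and GCGTG were searched on both strands and had 0 matches, against 43.8% of promoters with at least 1 of them. TATAAA had 0 matches, against 13.6% of promoters with it, and none of the marked matches overlapped another. These are matches of letters in a window, and no value on the arrays measured binding there.

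Several features of the arrays bear on every Hdc value. The share of probes with a value was 81.8% to 88.8% per array in constant hypoxia, 42.9% to 65.7% in intermittent hypoxia and 41.0% to 67.9% in normoxia. The deposited array medians were -1.17 to -0.15 in constant hypoxia, -0.03 to 0.03 in intermittent hypoxia and -0.07 to 0.09 in normoxia, so these differences in how the values were prepared cannot be told apart from constant hypoxia. Ratios alone do not show whether the defining transcripts of kidney were abundant, so the tissue label could not be checked. Eif2s3y, a gene of the Y chromosome that only a male can express, was above its array's median on 11 arrays and below it on 7, with values of -2.16 to 1.63. It exceeded 1 on 3 arrays and lay below -1 on 4, so it gives the ratios no common direction of labelled sex across the arrays. On intermittent hypoxia 2 weeks A the animal in the female channel has the name of a 1-week mouse, and on constant hypoxia 4 weeks A the treatment text of the Cy3 channel speaks of 2 weeks. Per the labels the arrays of a group carried different animals, and the litter of each is not stated.

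At 2 weeks the Hdc ratio lay on opposite sides of 0 in hypoxia and in normoxia, and it was among the largest ratios on its arrays. Probe 338 read -4.01 and -1.52 on the constant hypoxia arrays A and B, -1.90 on intermittent hypoxia A, and 3.01 and 2.83 on normoxia A and B. Intermittent hypoxia B had no value. Both constant hypoxia arrays and the single intermittent hypoxia array were below 0, and both normoxia arrays were above it. The intermittent hypoxia value lay between those of the constant hypoxia arrays. How many of all probes separate hypoxia from normoxia in this way was not counted. The normoxia arrays were 0.17 apart on this scale, whereas the constant hypoxia arrays were 2.49 apart.

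Probe 6885 gave the same direction for constant hypoxia against normoxia at 2 weeks, with smaller sizes. It read -1.91 and -0.44 in constant hypoxia (A and B), against 1.79 on normoxia A. It had no value on either intermittent hypoxia array nor on normoxia B, so at 2 weeks its normoxia level rests on 1 array. Again the constant hypoxia arrays were negative and the normoxia array positive.

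**Figure D1:**
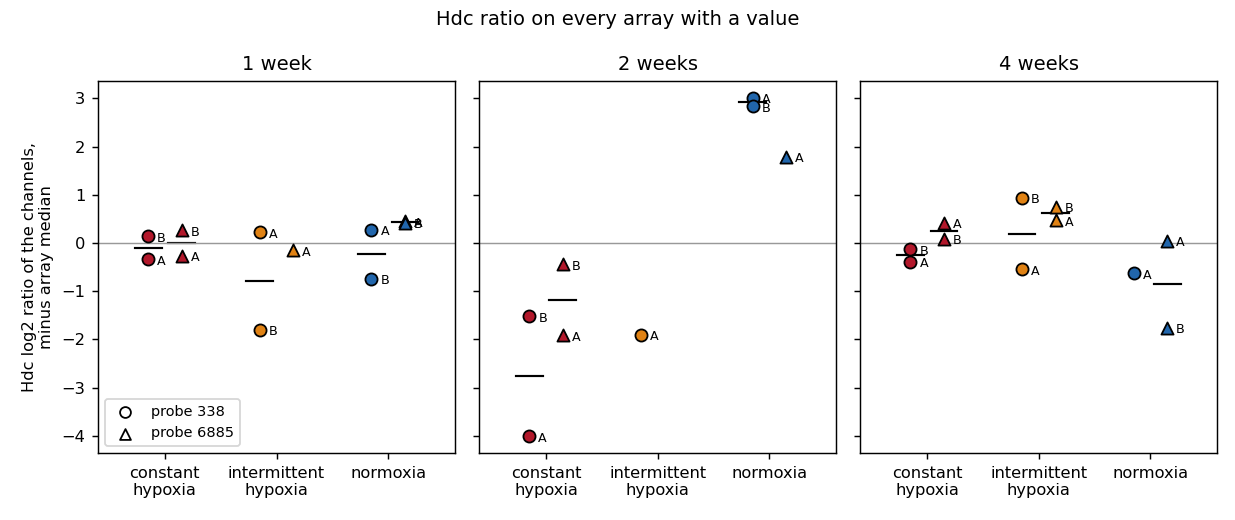
Log2 ratio of the channels for Hdc minus the array median (vertical axis) on every array with a value, by duration (panels) and condition (horizontal axis), with probe 338 as circles, probe 6885 as triangles, the array letter beside each symbol and group means as bars where both arrays had a value. At 2 weeks the 3 hypoxia values of probe 338 lie between -4.01 and -1.52, below the normoxia values of 2.83 and 3.01. At 1 and 4 weeks the values of probe 338 lie between -1.80 and 0.94 over all conditions. For probe 6885 the normoxia values lie above the hypoxia values at 1 week and below them at 4 weeks.

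The group means of probe 338 at 2 weeks were -2.76 ± 1.76 in constant hypoxia and 2.92 ± 0.12 in normoxia (SD, n = 2 each), a difference of -5.69. For intermittent hypoxia the single array differed from the normoxia mean by -4.82, and this is the array with a female animal named as 1 week old. The pooled SD within groups of 2 arrays was 0.996 over 7 groups, so both differences were larger than the spread between arrays. For probe 6885 the constant hypoxia mean was -1.18 ± 1.04 (SD, n = 2), which differed by -2.97 from the normoxia array, against a pooled SD of 0.701 over 6 groups. Over the whole table, 1 of 6518 probes tested (0.0153%) passed limma's test for constant hypoxia minus normoxia at 2 weeks, and it was Hdc probe 338. Since Hdc was picked for that contrast, nothing is read from this call.

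The sizes can be put as folds between the channels of an array, relative to the array's median. On constant hypoxia A at 2 weeks probe 338 differed 16.1-fold between the channels, the 13th largest of 14257 ratios on that array. On constant hypoxia B it differed 2.86-fold, the 33rd largest of 14323. Both are far into the tail of their array, although the fold on array A was several times that on array B. On intermittent hypoxia A it differed 3.74-fold, the 19th largest of 7185. On the normoxia arrays the folds ran the other way and were 8.04 on A, the 2nd largest of 8937, and 7.13 on B, the 7th largest of 6614. Probe 6885 differed 3.77-fold on constant hypoxia A, the 35th largest of 14257, and 3.46-fold on normoxia A, the 28th largest of 8937. On constant hypoxia B it differed 1.35-fold and took place 3266 of 14323, in the body of that array.

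At 1 week the groups overlapped for probe 338. It read -0.34 and 0.14 in constant hypoxia, 0.22 and -1.80 in intermittent hypoxia, and 0.28 and -0.74 in normoxia, each time A before B. Only intermittent hypoxia B stood out, where Hdc differed 3.49-fold between the channels and was the 9th largest of 10121 ratios. The difference from normoxia was 0.14 for constant hypoxia and -0.56 for intermittent hypoxia, each smaller than the pooled SD of 0.996. Probe 6885 read -0.27 and 0.27 in constant hypoxia, -0.15 on intermittent hypoxia A, and 0.45 and 0.42 in normoxia, with no value on intermittent hypoxia B. The normoxia values of probe 6885 were both above the values in hypoxia, but the differences of -0.43 and -0.58 were also under its pooled SD of 0.701.

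At 4 weeks the 2-week pattern was no longer seen. Probe 338 read -0.38 and -0.13 in constant hypoxia, -0.55 and 0.94 in intermittent hypoxia, and -0.63 on normoxia A, with no value on normoxia B. The differences from that normoxia array were 0.37 for constant hypoxia and 0.82 for intermittent hypoxia, both under the pooled SD. Probe 6885 read 0.42 and 0.09 in constant hypoxia, 0.47 and 0.76 in intermittent hypoxia, and 0.04 and -1.76 in normoxia. All 4 hypoxia values were above both normoxia values, a separation that was not counted over all probes. The differences of 1.11 and 1.47 exceeded the pooled SD of 0.701. They rest on normoxia B, where probe 338 had no value and probe 6885 differed 3.38-fold between the channels, the 36th largest of 8903 ratios. Without it the differences were 0.21 and 0.57.

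Read by age, the mean of probe 338 in constant hypoxia and in normoxia stood apart at 2 weeks, in opposite directions. At 4 weeks the mean was nearer its 1-week value in each condition. In intermittent hypoxia the 2-week value was that of 1 array (-1.90), close to intermittent hypoxia 1 week B (-1.80). The 2-week mean minus the 1-week mean was -2.67 in constant hypoxia, -1.11 in intermittent hypoxia and 3.15 in normoxia. The 4-week mean minus the 2-week mean was 2.51 in constant hypoxia, 2.10 in intermittent hypoxia and -3.55 in normoxia. The 4-week mean minus the 1-week mean was -0.16 in constant hypoxia, 0.99 in intermittent hypoxia and -0.39 in normoxia, so the end points differed by less than the pooled SD. For probe 6885 the 2-week minus 1-week difference was -1.17 in constant hypoxia and 1.36 in normoxia, and the 4-week minus 2-week difference was 1.43 in constant hypoxia and -2.65 in normoxia. By their names the animals differed between ages, except the female of intermittent hypoxia 2 weeks A, which has the name of a 1-week mouse. The intermittent hypoxia differences of -1.11 and 2.10 for probe 338 rest on that array. All of these are differences between groups and not courses within animals.

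Ordered by mean, probe 338 stood highest in normoxia at 2 weeks (2.92), then in intermittent hypoxia at 4 weeks (0.20), constant hypoxia at 1 week (-0.10), normoxia at 1 week (-0.23), constant hypoxia at 4 weeks (-0.26), normoxia at 4 weeks (-0.63), intermittent hypoxia at 1 week (-0.79), intermittent hypoxia at 2 weeks (-1.90) and constant hypoxia at 2 weeks (-2.76). The step below the first group was 2.72, and the next 5 steps were 0.02 to 0.37, all under the pooled SD. The step of 1.11 between intermittent hypoxia at 1 and at 2 weeks just exceeded the pooled SD, although intermittent hypoxia 1 week B, at -1.80, lay close to the 2-week array. The last step, 0.86, was under the pooled SD, and the intermittent hypoxia value at 2 weeks fell between both constant hypoxia arrays. For probe 6885 the order began with normoxia at 2 weeks (1.79) and intermittent hypoxia at 4 weeks (0.61) and ended with normoxia at 4 weeks (-0.86) and constant hypoxia at 2 weeks (-1.18). Of its 7 steps, the first (1.18) and that into normoxia at 4 weeks (0.71) exceeded the pooled SD of 0.701.

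The Hdc probes could be compared on the 13 arrays that gave both a value. Pearson's r between them was 0.93 and Spearman's rho 0.64, as a description of arrays that each probe pair shares in full, including sample, labelling and hybridisation. Without constant hypoxia 2 weeks A and normoxia 2 weeks A, the arrays farthest from the median of probe 338, r was 0.56 over 11 arrays. The signs matched on 7 of 13 arrays, and the slope of probe 6885 on probe 338 was 0.499. Away from 2 weeks probe 6885 was at times the larger in size, as on normoxia 1 week A, where it read 0.45 and probe 338 read 0.28.

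**Figure D2:**
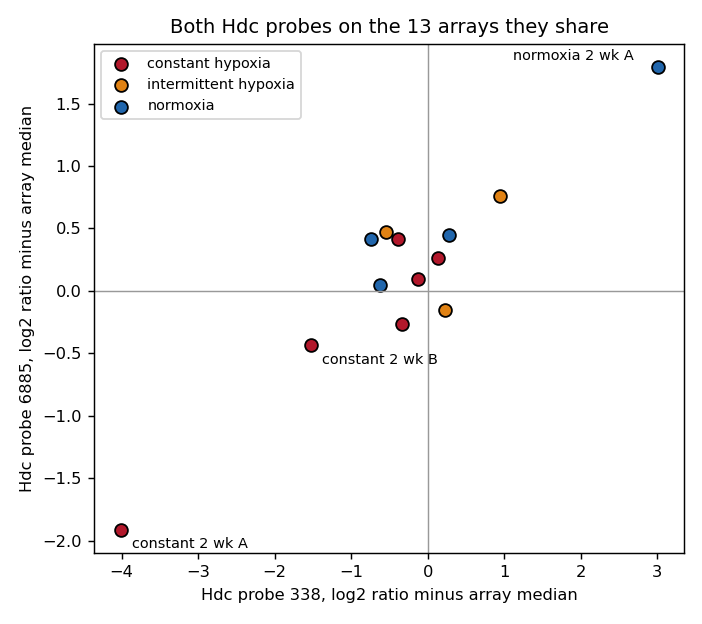
Hdc probe 6885 (vertical axis) against Hdc probe 338 (horizontal axis), both as log2 ratios minus the array median, on the 13 arrays with a value for each; each point is an array, coloured by condition. The 2-week arrays lie at the ends of the spread, at -4.01 and -1.91 for constant hypoxia A and at 3.01 and 1.79 for normoxia A, and the other arrays crowd near 0.

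The deposited ratios keep a trace of the signals behind them. Raised from the log2 scale, 28 of the 30 Hdc values equalled a ratio of whole numbers with no term above 3000, within a relative tolerance of 4e-10. The terms are in lowest form, so the signals themselves may have been whole multiples of them. Over 1500 sampled values of each array such a ratio was found for 34.3% to 68.7% in constant hypoxia, 90.8% to 96.5% in intermittent hypoxia and 90.7% to 94.5% in normoxia. For natural or base-10 logs at most 1.0% of the sampled values gave one.

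For probe 338 at 2 weeks the terms, first over second, were 107 over 1943 on constant hypoxia A and 496 over 1665 on constant hypoxia B. They were 243 over 905 on intermittent hypoxia A, and 519 over 62 and 746 over 105 on normoxia A and B. The terms can be set against the array's median terms, taken over the sampled values that gave whole numbers. Terms above 3000 were not searched, and constant hypoxia A and B gave a ratio for only 67.3% and 62.6% of sampled values. The medians leave out the other values, so whether a term there exceeds the median of all spots is not known. On constant hypoxia A the first term was 0.13 of the median first term and the second 1.94 of the median second term. On constant hypoxia B these were 0.56 and 1.51, and on intermittent hypoxia A 0.75 and 2.78. On normoxia A the first term was 1.36 of its median and the second 0.16, and on normoxia B they were 2.45 and 0.33. On each of these 5 arrays 1 term was under and the other over its median of found terms, and the terms changed places between hypoxia and normoxia. The terms stand for signals only where nothing was cancelled from the ratio.

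At 1 week the paired terms of probe 338 were 489 over 1307 and 409 over 804 in constant hypoxia, 326 over 285 and 207 over 745 in intermittent hypoxia, and 161 over 148 and 154 over 283 in normoxia. At 4 weeks they were 1001 over 2141 on constant hypoxia B, 307 over 469 and 1329 over 700 in intermittent hypoxia, and 448 over 645 on normoxia A, with none found for constant hypoxia A. The array medians of the second term were 1001 to 1459 in constant hypoxia, 263 to 398 in intermittent hypoxia and 284 to 386.5 in normoxia, so terms can be set against each other only within an array.

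Probe 6885 had weaker terms on some arrays. On constant hypoxia A at 2 weeks it was 29 over 123, or 0.036 and 0.12 of the array's median terms, so this ratio came from a spot that was dim in both channels if the terms are the signals. On constant hypoxia B at 2 weeks it was 1039 over 1649, and on normoxia A at 2 weeks 400 over 111. On normoxia B at 4 weeks, which set the 4-week differences, it was 131 over 434. The smallest terms were 15 over 17, on intermittent hypoxia A at 1 week.

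**Figure D3:**
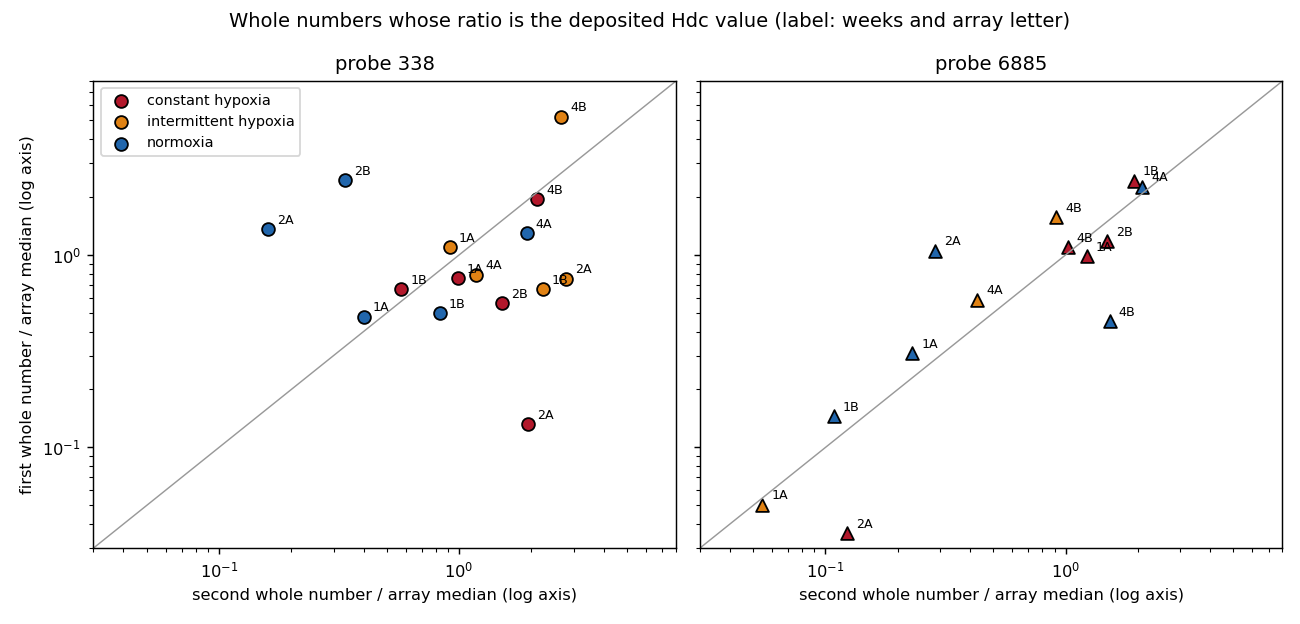
First whole number of the Hdc ratio (vertical axis) against the second (horizontal axis), each divided by the array's median of that term, on log axes, for probe 338 (left) and probe 6885 (right); points are arrays, labelled by weeks and letter and coloured by condition. On the left, constant hypoxia 2A lies at 0.13 and 1.94 and normoxia 2A at 1.36 and 0.16, on opposite sides of the line of equal terms.

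The arrays carried a trend along the probe numbers, so Hdc was set against the probes numbered within 50 of it. Around probe 338 the neighbours had a median of -0.78 on constant hypoxia 2 weeks A and -0.45 on B, -0.08 on intermittent hypoxia A, and 0.03 and 0.19 on normoxia A and B. On constant hypoxia A and B all 91 neighbours lay above Hdc, and on intermittent hypoxia A all 50 did. On normoxia A none of 65 neighbours lay above Hdc, and on normoxia B none of 40. Measured from its neighbours' median, probe 338 stood at -3.23 and -1.06 in constant hypoxia, -1.83 in intermittent hypoxia, and 2.98 and 2.64 in normoxia.

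With a running median of 101 probes along the numbers subtracted, the 2-week difference of probe 338 was -4.89 for constant hypoxia and -4.59 for intermittent hypoxia. Around probe 6885 the neighbours were nearer 0, with medians of 0.17 and 0.12 on constant hypoxia 2 weeks A and B and 0.18 on normoxia A, and its 2-week difference was -2.99 after the same step. On constant hypoxia B all 95 neighbours of probe 6885 lay above it, although its value was only -0.44. On normoxia 4 weeks B all 64 neighbours lay above it.

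**Figure D4:**
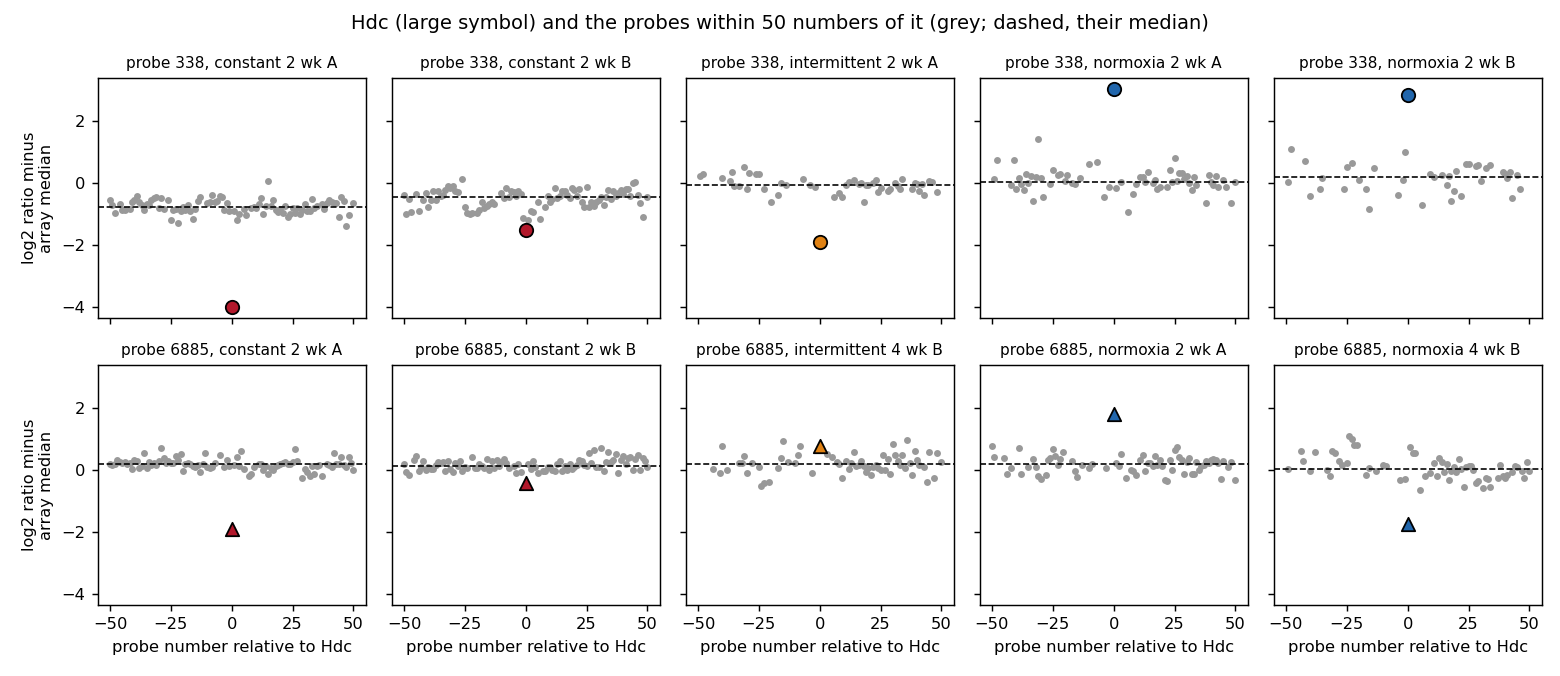
Log2 ratio minus the array median (vertical axis) of Hdc (large coloured symbol) and of the probes within 50 numbers of it (grey points, with their median as a dashed line) against the probe number relative to Hdc (horizontal axis), for probe 338 on 5 arrays (top) and probe 6885 on 5 arrays (bottom). Probe 338 lies outside its neighbours on each array shown, with medians of -0.78 and -0.45 beneath constant hypoxia A and B, and probe 6885 lies outside them on all shown but intermittent hypoxia 4 weeks B.

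Over the arrays with a value, probe 338 had a range of 7.02, the 2nd largest of the 6518 probes tested, against a median range of 1.23. With the running median removed the range was 6.21, again the 2nd largest, against a median of 0.949. Among named probes, the pattern of probe 338 was most like those of Bst2 (r = 0.86, 15 arrays), which tethers enveloped virus particles to the cell, Usp9x (0.85, 16 arrays), a deubiquitinase, Commd7 (0.83, 16 arrays), Bsdc1 (0.82, 15 arrays) and Ibtk (0.82, 15 arrays), an inhibitor of Bruton's tyrosine kinase. Of these 5, 4 lie within 350 probe numbers of Hdc. The lowest correlations were those of Ubn2 (-0.81), Vps11 (-0.79), Psmd3 (-0.77), Tubb5 (-0.75) and Npc2 (-0.74).

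Likeness to probe 338 went with closeness in probe number. The median r was 0.53 over the 167 probes within 350 numbers and 0.024 over the 5555 beyond, named or not, with that distance chosen after the values were seen. With the running median removed these were 0.015 and -0.006. Usp9x then had an r of 0.82, Bsdc1 and Bst2 each 0.75 and Commd7 0.61, while Ibtk had 0.016. The highest after that step were Usp9x, Lamtor3 (0.77), Pja1 (0.76), Bsdc1 and Bst2. For probe 6885 the most alike named probe, with 8335 probes compared, was the other Hdc probe (0.93), followed by Acadl (0.83), a mitochondrial enzyme of fatty acid oxidation, Cops6, Flii and Snhg14 (0.80 to 0.81), none of them within 350 numbers. With the running median removed these were 0.61 for Acadl, 0.57 for Cops6, 0.52 for Flii and 0.13 for Snhg14. Its lowest were Gmfb and Iqcc (-0.78 each), Nono, Rufy1 and Cltc (-0.74 to -0.73). All these correlations are over at most 16 arrays that the probes share and are given without a p.

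**Figure D5:**
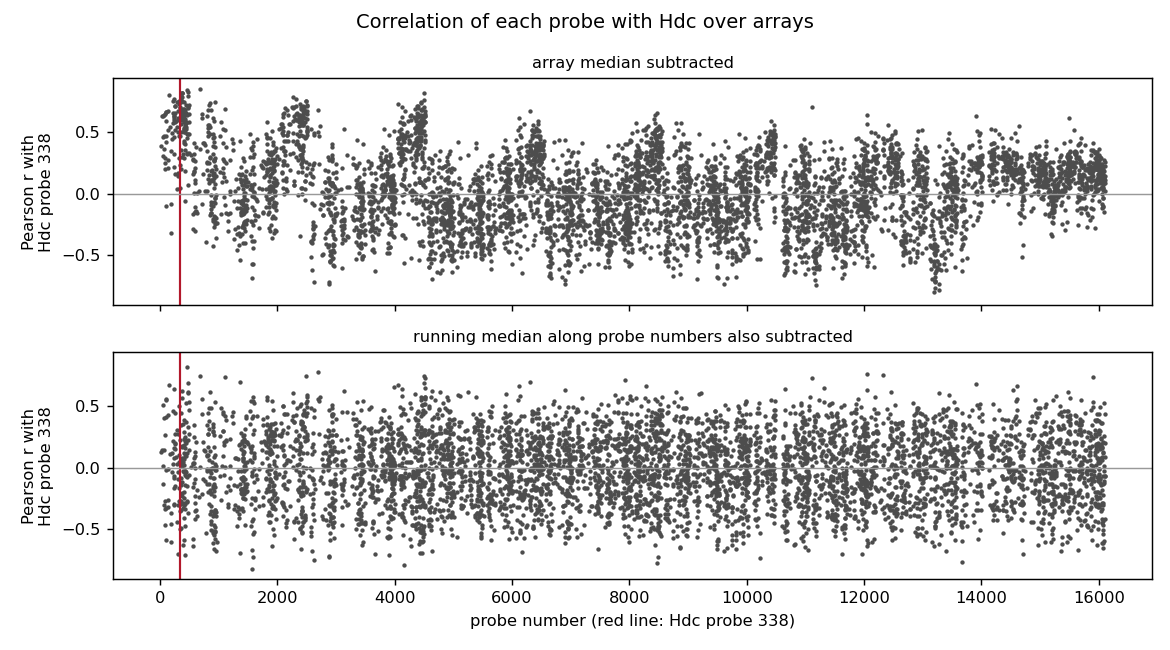
Pearson's r of each probe with at least 15 arrays in common with Hdc probe 338 (vertical axis) against the probe number (horizontal axis), with the array median subtracted (top) and with the running median along the probe numbers also subtracted (bottom); the red line marks probe 338. Near the line the upper panel is shifted upward (median r 0.53 within 350 numbers), and the lower panel is level (median r 0.015).

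The other genes that handle histamine were measured thinly. Of the 14 besides Hdc, 3 had a probe and 2 passed the filter on missing values. No probe was used here for the receptors, for the enzymes Hnmt and Aoc1 that open the breakdown routes, or for the vesicle transporter Slc18a2. Maoa, monoamine oxidase A, read 0.49 and 0.47 on constant hypoxia A and B at 2 weeks, 0.19 and 0.61 in intermittent hypoxia, and -0.15 and 0.07 in normoxia. All 4 hypoxia values of Maoa were above both normoxia values, and how many of all probes do so was not counted. The differences were 0.51 (SE 0.215, adjusted p = 0.405) and 0.43 (adjusted p = 0.418) in limma, which did not pass. Aldh2, a mitochondrial aldehyde dehydrogenase, read -0.93 and -0.75 in constant hypoxia, -0.01 and -0.20 in intermittent hypoxia, and -0.05 and -0.23 in normoxia at 2 weeks. Its difference for constant hypoxia was -0.70 (limma adjusted p = 0.625) and did not pass. Slc18a1, another vesicular monoamine transporter, had values on 5 arrays, all of them constant hypoxia.

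Taking the 8 lists of related genes together, 37 of 99 members had a probe, and 23 genes with 29 probes could be tested. Over 8 comparisons that made 232 tests, of which 0 passed limma's adjusted threshold of 0.05 and 21 (9.05%) had an unadjusted p under 0.05, against 7.19% of the 52144 tests of all probes. The smallest adjusted p was 0.294. Over all 6518 probes, the share that passed was 0% for constant hypoxia minus normoxia averaged over ages, 0% at 1 week, 0.0153% at 2 weeks and 0.0614% at 4 weeks. For intermittent hypoxia minus normoxia it was 0% averaged over ages, 0% at 1 week, 0.138% at 2 weeks and 0% at 4 weeks. The count in the lists is therefore near the background of each comparison.

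Among genes of histidine supply and breakdown, 6 of 15 had a probe and 2 were tested. Cndp2, a dipeptidase that can split carnosine-like peptides, differed by 0.47 and Slc3a2, the heavy chain of an amino acid exchanger, by 0.04 between constant hypoxia and normoxia at 2 weeks (limma adjusted p = 0.902 and 0.989). Among decarboxylases that use pyridoxal phosphate and genes of vitamin B6, 10 of 18 had a probe and 8 were tested with 11 probes. At 2 weeks 5 of these probes were above and 6 below 0 for constant hypoxia minus normoxia, with a median of -0.04, the same as the median of -0.04 over all probes tested. Gldc, the glycine decarboxylase, differed by -0.69 at probe 8168 (adjusted p = 0.456) and by -0.04 at probe 8765 (adjusted p = 0.979), so its probes did not match each other. Pdxk, the kinase that makes pyridoxal phosphate, differed by 0.38 at probe 13392 (adjusted p = 0.810).

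Mast cells, a main store of histamine, could hardly be read. Of 19 genes, 4 had a probe and only Fcer1g, a signalling chain of Fc receptors that other leukocytes also carry, was tested. Fcer1g read -0.55 and -0.63 in constant hypoxia, -0.56 on intermittent hypoxia A, and -0.35 and 0.57 in normoxia at 2 weeks. Its difference for constant hypoxia was -0.69 (limma adjusted p = 0.605), far smaller than that of Hdc and with no array beyond 0.63 in size at 2 weeks. Kit, the stem cell factor receptor of mast cells, was not tested, and its probe 7420 read 0.43 and 0.69 in constant hypoxia and 1.06 and 0.81 in normoxia at 2 weeks. Its other probe, 13009, had values only in constant hypoxia, and read -0.38 and -0.25 there at 2 weeks. Gata2 and Kitl were not tested either. At 2 weeks Gata2 probe 538 read -0.42 and 0.08 in constant hypoxia and 0.25 on normoxia A. Gata2 probe 3067 read 0.58 and 0.35 in constant hypoxia and had no value in normoxia. Kitl went the other way from Hdc, with -0.18 and 0.04 in constant hypoxia and -0.35 on normoxia A. No probe was used here for the defining proteases Cpa3, Cma1, Tpsab1 or Tpsb2, nor for the receptor chains Fcer1a and Ms4a2, so the part of mast cells in the Hdc ratio was not tested. Of the other leukocyte markers, 2 of 11 had a probe, and constant hypoxia minus normoxia at 2 weeks was 0.23 for S100a9 and -0.33 for Lyz2 (adjusted p = 0.842 and 0.849).

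Because Hdc differs by sex in the mouse kidney and each array sets animals labelled male and female against each other, its signs were laid beside those of sex-linked and sex-biased genes. On the 7 arrays where an Hdc probe exceeded 1 in size, Eif2s3y read 1.31 and -0.64 on constant hypoxia 2 weeks A and B. It read 0.19 on intermittent hypoxia 1 week B and -0.50 on intermittent hypoxia 2 weeks A. On normoxia it read -1.84 at 2 weeks A, 0.43 at 2 weeks B and 1.63 at 4 weeks B. Its sign was opposite to that of Hdc on 4 of these 7 arrays, and on 10 of the 17 arrays with an Hdc value, taking the Hdc probe that was larger in size. On the 3 arrays where both exceeded 1 in size the signs were opposite, namely constant hypoxia 2 weeks A, normoxia 2 weeks A and normoxia 4 weeks B. On normoxia 2 weeks B, by contrast, Hdc stood at 2.83 while Eif2s3y was at 0.43 with the same sign.

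Genes known to be higher in male mouse kidney were read beside Hdc at 4 and at 2 weeks. Odc1, ornithine decarboxylase, read at probe 9319 1.88 and 1.58 in constant hypoxia, -0.10 and -1.42 in intermittent hypoxia, and -0.11 and 1.67 in normoxia at 4 weeks. Timd2 read at probe 7391 1.28 and 0.64 in constant hypoxia, -0.32 and -1.70 in intermittent hypoxia, and 0.18 and 2.14 in normoxia at 4 weeks. On intermittent hypoxia B and normoxia B at 4 weeks Hdc had the opposite sign to both genes. It read 0.94 and 0.76 on intermittent hypoxia 4 weeks B and -1.76 at probe 6885 on normoxia 4 weeks B. Nudt19, also male-higher, read -1.53 and 1.56 on these arrays, again opposite to Hdc. Male-higher Gusb read 0.78 and 0.60 at probe 11643, so it shared the sign of Hdc on intermittent hypoxia B. Slc22a7, which is higher in females, read -0.30 and 0.68, opposite to Hdc on both arrays. The other Odc1 probe, 13700, read -0.67 and 2.38 in constant hypoxia at 4 weeks, so on array A the Odc1 probes had opposite signs. On these constant hypoxia arrays Hdc lay between -0.38 and 0.42. At 2 weeks, where Hdc was largest, probe 9319 of Odc1 read 0.16 on constant hypoxia A, -0.10 and -0.77 in intermittent hypoxia, and 0.70 and -0.22 in normoxia. Nudt19, a nudix hydrolase, read -0.01 and -1.12 in constant hypoxia, -1.11 on intermittent hypoxia A, and 1.03 and -0.43 in normoxia at 2 weeks. It shared the sign of Hdc probe 338 on 4 of these 5 arrays and had the opposite sign on normoxia B.

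None of the sex genes passed in the comparisons of the conditions. The mean over the male-higher genes measured had the opposite sign to Hdc on 2 of the 7 arrays with a large Hdc ratio and on 9 of 17 arrays in all. For constant hypoxia minus normoxia at 2 weeks, Eif2s3y differed by 1.04 (limma adjusted p = 0.756), Ddx3x, an X-linked RNA helicase gene, by -0.91 at probe 712 (adjusted p = 0.294) and by 0.19 at probe 5109 (adjusted p = 0.928). Gusb differed by 0.64 at probe 13182 (adjusted p = 0.464) and Nudt19 by -0.86 (adjusted p = 0.781), both of the male-higher list. Gusb probe 13182 had no value on normoxia 2 weeks B, and at its other tested probe, 11643, Gusb differed by 0.01 (limma adjusted p = 0.994). Slc22a7, an organic anion transporter higher in females, differed by 0.60 (adjusted p = 0.373). The part of an animal's sex or maturity in the Hdc ratio was not tested.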

How the data were processed

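The measurements were 18 arrays of mouse kidney cDNA, 2 for each of 9 groups read from the titles. Per the labels' protocols, 60 ug of total RNA per channel was labelled by direct incorporation of Cy5 or Cy3. Values are log2 ratios as the authors deposited them, and the sources used here state neither the image processing and normalization behind them nor which channel is on top. That the log base is 2 was read from the values.

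Of 16128 probes, 9604 carried a single symbol per the platform annotation, 213 carried more than 1 and 6311 none, and 9496 matched an Entrez gene and 0 symbols needed updating. Each array's median over the tested probes was subtracted, which removes any shift common to all probes. Tested were the 6518 probes (40.4%) measured on 15 or more arrays, with no group lacking a value altogether (at least 1 array). Hdc probe 338, with 16 values, passed this filter and probe 6885, with 14, did not. The fit used limma 3.58.1 under R 4.3.3 (9 group means, eBayes, prior degrees of freedom 5.62) and p values adjusted by Benjamini-Hochberg over all 6518 probes, threshold 0.05. The number of arrays limits the precision. A p value sets a difference only against the spread between these arrays, which eBayes moderates over all probes tested. The fit was tested on simulated data. Descriptions used Python 3.11.15 with SciPy 1.17.1, NumPy 2.4.6 and pandas 2.3.3. Promoters and their motif shares are from RefSeq, GRCm38.p6.

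Genes most like Hdc were the 5 named probes with the highest and the 5 with the lowest Pearson correlation, over at least 15 arrays for probe 338 and 12 for probe 6885. The lists were histamine handling, histidine supply and breakdown, pyridoxal phosphate decarboxylases and vitamin B6, mast cells and basophils, other leukocytes, sex-linked genes, and kidney genes higher in males or in females. Up to 4 members of each were named by smallest unadjusted p at 2 weeks, with further ones for their values beside Hdc, chosen after those were seen. Hdc, the lists and the tests were chosen with earlier results of these data known. Alternatives tried were the deposited values, another centring set, equal spreads, a running median, a replicate block, other filters, averaged probes, other variance options and leaving out each array.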

Additional observations from a re-analysis of the deposited data

Results flagged for a closer look

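Hdc probe 338 was below 0 on both constant hypoxia arrays at 2 weeks (-4.01 and -1.52) and above 0 on both normoxia arrays at 2 weeks (3.01 and 2.83), a difference of -5.69. Hdc probe 6885 was above 0 on both constant hypoxia arrays at 4 weeks (0.42 and 0.09) and below 0 on both at 2 weeks (-1.91 and -0.44), a difference of 1.43. Each was picked out because every array of the first group moved opposite to every array of the other. How many of all probes do so was not counted. The test of such a difference is not read for Hdc, which was chosen by these ratios. The 4-week against 2-week difference was not tested.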

How the results depend on the processing

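The 2-week differences of Hdc kept their sign under all alternatives that gave one. Without normoxia 2 weeks A probe 6885 had no 2-week difference. Without intermittent hypoxia 2 weeks A probe 338 had none for intermittent hypoxia. With the 2 probes averaged, constant hypoxia minus normoxia at 2 weeks was -4.59. On the values as deposited, constant hypoxia minus normoxia of probe 338 turned to -0.82 at 1 week, its constant hypoxia means were -1.20 at 1 week and -1.30 at 4 weeks, at 4 weeks its difference turned to -0.77 and probe 6885 went to 0.0034, at 1 week probe 6885 went to -1.39, and the mean of probe 6885 in constant hypoxia at 4 weeks turned to -0.79; the constant hypoxia medians lie below 0 there. Leaving out 1 array at a time, constant hypoxia minus normoxia of probe 338 ran from -0.38 to 0.65 at 1 week, -6.93 to -4.44 at 2 weeks and 0.24 to 0.50 at 4 weeks, and of probe 6885 from -0.70 to -0.17, -3.70 to -2.23 and 0.21 to 2.01. Intermittent hypoxia minus normoxia of probe 338 ran from -1.57 to 0.46, -4.91 to -4.74 and 0.08 to 1.57, and of probe 6885 from -0.60 to -0.57 at 1 week and 0.57 to 2.37 at 4 weeks. Group means that turned sign by more than the pooled SD were those of probe 338 at 1 week in intermittent hypoxia (-1.80 to 0.22) and of probe 6885 at 4 weeks in normoxia (-1.76 to 0.044).

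Counts of probes past the threshold moved more. The main fit tested 6518 probes. Requiring values on all 18 arrays left 3028, averaging probes 5751, and asking only for 1 array a group 6915. Leaving out an array could lower the number too. It was 5338 for intermittent hypoxia at 2 weeks without intermittent hypoxia 2 weeks A. For constant hypoxia at 4 weeks without constant hypoxia 4 weeks B it was 6017. For constant hypoxia minus normoxia averaged over ages, the values as deposited gave 6251 and the running median 1, against 0. At 1 week the deposited values gave 4850, against 0. At 2 weeks the running median gave 9, and the replicate block, values on all 18 arrays and the unmoderated test 0 each, against 1. Hdc probe 338, with 16 values, was not part of the fit that required all 18 arrays. At 4 weeks the deposited values gave 5871, averaged probes 2, and equal spreads, running median, all 18 arrays, the unmoderated test and the trend and robust options 0 each, against 4. For intermittent hypoxia at 1 week equal spreads and running median gave 1 each, against 0. At 2 weeks the deposited values gave 3, equal spreads 0, running median 48, replicate block 5, all 18 arrays 0, averaged probes 3 and the trend and robust options 16, against 9. At 4 weeks equal spreads and the unmoderated test gave 1 each, against 0. Without 1 array the counts for constant hypoxia ran from 0 to 685 averaged, 0 to 0 at 1 week, 0 to 13 at 2 weeks and 0 to 751 at 4 weeks, and for intermittent hypoxia from 0 to 1, 0 to 1, 0 to 701 and 0 to 1. The 685 and 751 came without constant hypoxia 4 weeks B, the 13 without normoxia 2 weeks A and the 701 without intermittent hypoxia 2 weeks A. Deviations of arrays of the same letter had correlations of -0.39 to 0.47 (median 0.00, 10 of 36 pairs over 0.1, 3028 probes). No label says what the letters mark, so whether some arrays shared a litter, slide or day cannot be read from this. The cause of the changes in the counts was not tested.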
